A study of Homo sapiens with 4 samples.

Results

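Aminoacyl-tRNA synthetases and the scaffold proteins AIMP1 and AIMP2 were described in JJN3, an established human multiple myeloma cell line, after a knockdown of the kinase WNK1. The set was chosen by gene symbol and holds 37 of the 60682 genes of the count table: 19 cytosolic synthetases, 16 mitochondrial synthetases and 2 scaffolds. All 37 had an entry in the table, and 36 passed the filter on low counts and were tested. Total RNA was sequenced from 2 libraries of JJN3 cells transduced with a short hairpin RNA (shRNA) against WNK1 (shWNK1) and from 2 libraries of JJN3 cells transduced with the NS shRNA. Both groups therefore carry a hairpin, and they differ in which one. The labels do not say how long the cells carried the hairpins, how many hairpins were tried, or whether the libraries of a group came from separate cultures, so a p-value here covers only how these 4 libraries spread, which may be technical. In RNA from whole cultures, fewer cells expressing a gene and less RNA per cell cannot be told apart.

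An aminoacyl-tRNA synthetase joins an amino acid to its tRNA, the step at which the genetic code is read into amino acids. Most amino acids have a cytosolic enzyme and a separate mitochondrial enzyme, both encoded in the nucleus. GARS1 (glycine) and KARS1 (lysine) are exceptions whose single genes serve both compartments, and they were counted here with the cytosolic enzymes. In human cells several cytosolic synthetases are held with AIMP1, AIMP2 and EEF1E1 in a multi-synthetase complex, and the others act outside it. Synthetases fall into classes I and II by the fold of their catalytic domain. Uncharged tRNA activates the kinase GCN2 (gene EIF2AK4), which raises translation of the transcription factor ATF4, and many cytosolic synthetase genes are known ATF4 targets. A plasma cell secretes much protein, and its demand for charged tRNA is high.

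Sequencing depth was 16973521 and 20164122 counts in shWNK1 cells, against 17491537 and 17392619 in NS cells, and between 21465 and 23575 genes were detected per library. WNK1 itself had 18.6 and 19.6 CPM (counts scaled to 1000000 per library) in shWNK1 cells, against 288 and 245 CPM in NS cells (log2 -3.80, SE 0.085, edgeR adjusted p = 4.2e-25). All 8 plasma cell markers were detected, of which 2 rose, 5 fell and 1 was not called, while 38.8% of all tested genes were called. SDC1 fell most (82.0 and 91.4 CPM in shWNK1 cells, 209 and 225 CPM in NS cells; log2 -1.32, edgeR adjusted p = 3.3e-16). MZB1 fell by 0.98 on the log2 scale (edgeR adjusted p = 6.3e-10), and the larger of the rises was that of JCHAIN (log2 0.25, edgeR adjusted p = 9.9e-04). Summed markers of T cells, of myeloid cells and of erythroid cells reached at most 0.821 CPM in any library. The epithelial marker EPCAM had 120 and 126 CPM in shWNK1 cells and 109 and 119 CPM in NS cells (log2 0.11, edgeR adjusted p = 0.224). Of the stromal markers listed with it, COL1A1 had at most 0.146 CPM in a library and COL1A2 had no counts. The difference between libraries of a group was 2.94 (shWNK1) and 5.76 (NS) in chi-square per degree of freedom, against 36.3 to 42.7 between libraries of different groups.

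Cytosolic synthetases had the higher transcript levels in either group. Their median level, in CPM per kilobase of exon, was 50.2 in shWNK1 cells and 54.8 in NS cells, with gene means between 8.99 and 140 in shWNK1 cells and between 8.11 and 123 in NS cells. Mitochondrial synthetases had a median level of 9.44 in shWNK1 cells and 9.08 in NS cells on the same scale. GARS1 was the most abundant member, and IARS2 (isoleucine) the most abundant mitochondrial one, at 35.5 in shWNK1 cells and 45.1 in NS cells. The lowest members were SARS2 (serine), at 0.492 in shWNK1 cells and 0.399 in NS cells, and VARS2 (valine), at 0.0277 in shWNK1 cells and 0.0409 in NS cells. For these last 2 genes, 55.1% (SARS2) and 63.0% (VARS2) of the exon bases are shared with another annotated gene. The recorded counting command does not ask for reads that overlap several genes, and the part of this in both low levels was not tested. Levels per kilobase use the merged length of all annotated exons, so they depend on that length, which is greatest for LARS1 (leucine, 20639 bases), and which exons were used was not measured.

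**Figure D1:**
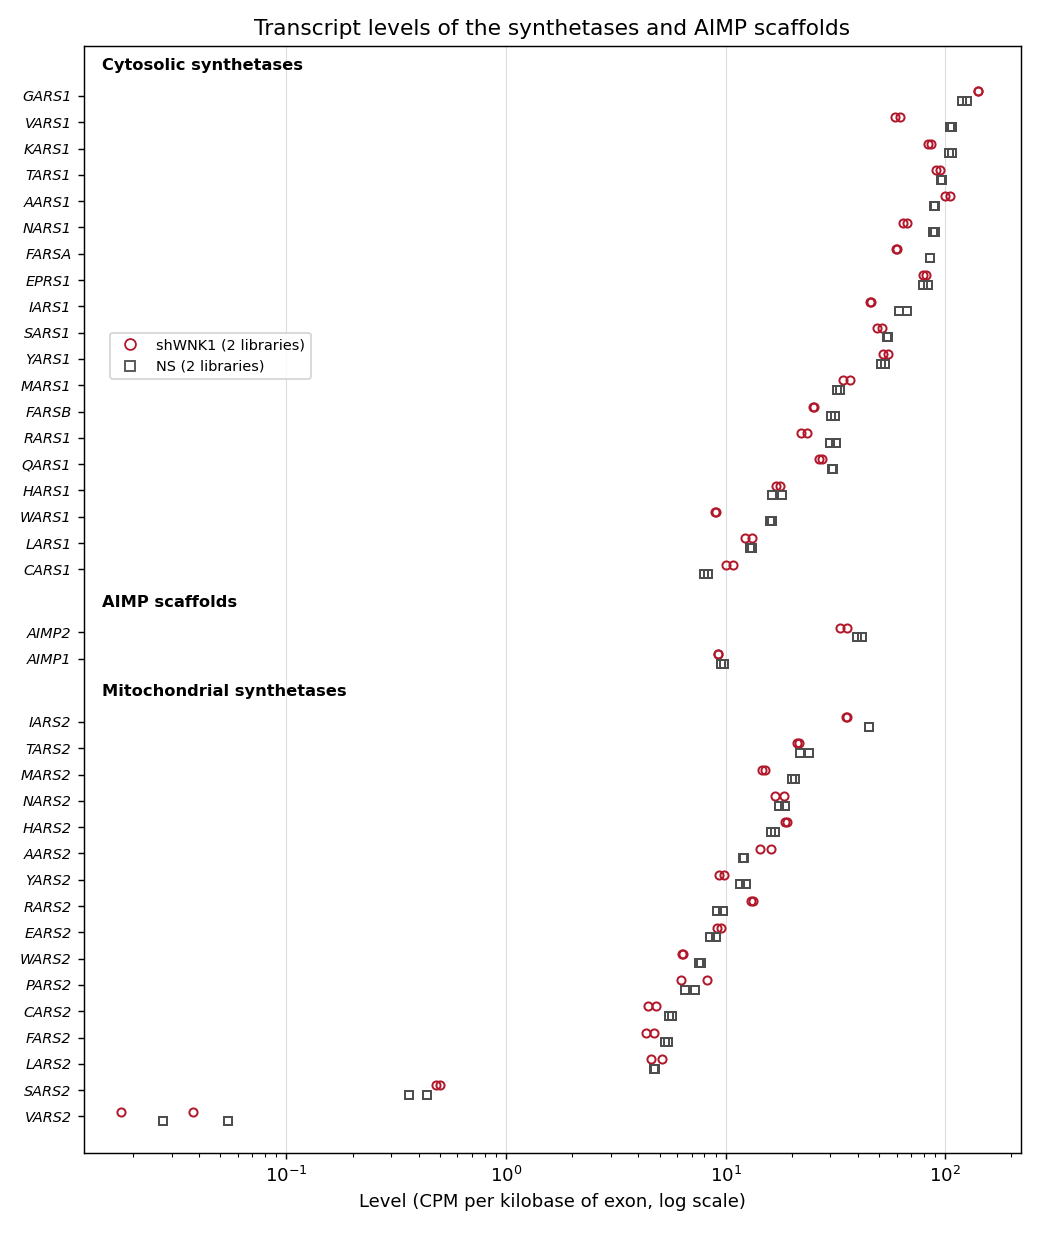
Level of each synthetase and AIMP scaffold in each library, in CPM per kilobase of exon on a log axis, with shWNK1 libraries as circles and NS libraries as squares. GARS1 stood highest and VARS2 lowest in both groups, and for most members the distance between groups was small beside the distance between genes.

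Individual synthetase transcripts differed between shWNK1 and NS cells in both directions, by less than 2-fold in each case. Loss of WNK1 and other effects of the hairpin cannot be told apart in this design. Of the 36 tested members 6 rose and 14 fell at an edgeR adjusted p under 0.05, so 20 were called, while 38.8% of all 14864 tested genes were called. Across all tested genes 18.5% rose and 20.2% fell. The median log2 fold change was -0.08 over the 36 members and 0.01 over all tested genes. Among cytosolic synthetases 3 of 19 rose and 9 fell, with a median of -0.13. Their summed level was 5157 and 5323 CPM in shWNK1 cells, against 5943 and 5821 CPM in NS cells, so the groups did not overlap. Among tested mitochondrial synthetases 3 of 15 rose and 4 fell, with a median of -0.04 whose sign turned under upper-quartile scaling (0.00078) and without NS replicate 2 (0.01). Their summed level was 781 and 785 CPM in shWNK1 cells, against 825 and 830 CPM in NS cells. In 29 of the 36 tested members the shWNK1 libraries both lay above (9) or both lay below (20) the NS libraries, as did those of 68.4% of all tested genes. Without shWNK1 replicate 2 the number of called members was 12 in place of 20, and 12 members were called under each of the 12 alternatives tried.

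**Figure D2:**
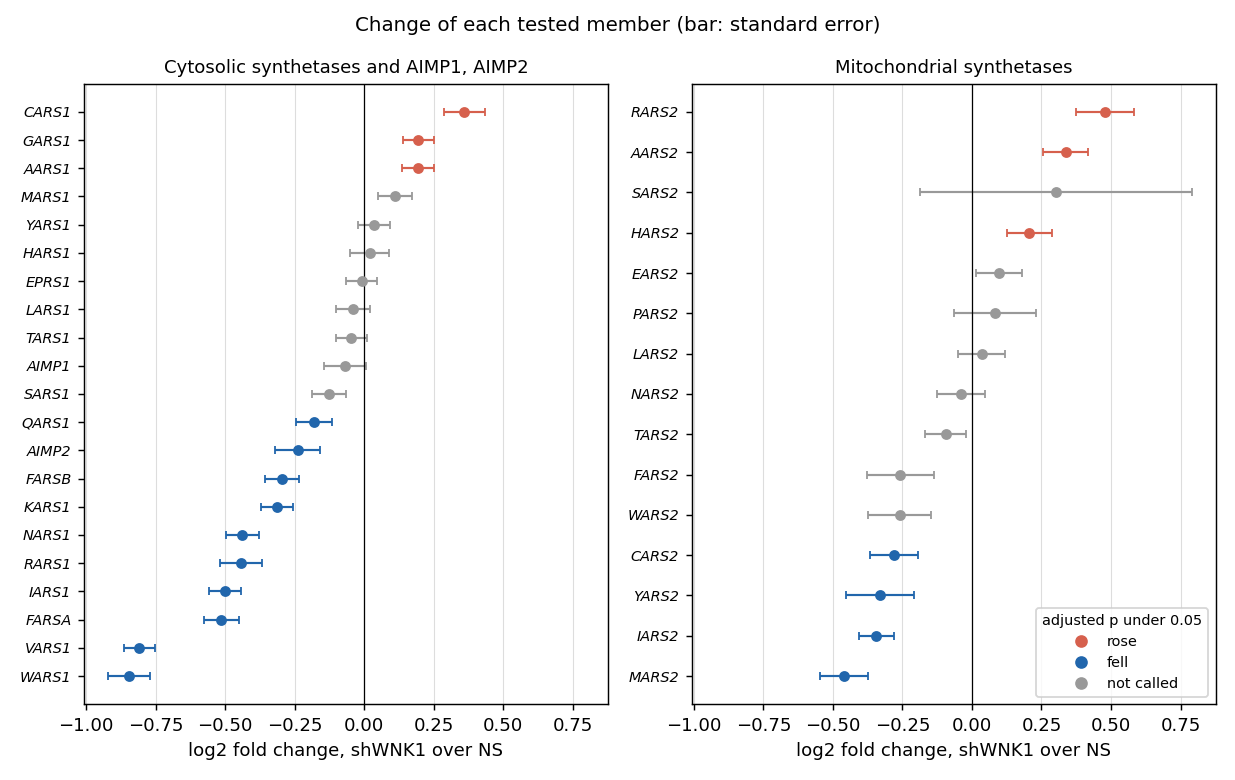
Log2 fold change of each tested member, shWNK1 over NS, with bars for the standard error; red marks members that rose, blue those that fell, and grey those not called at an edgeR adjusted p under 0.05. WARS1 (-0.85) and VARS1 (-0.81) lie farthest to the left, and RARS2 (0.48) farthest to the right.

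Cytosolic synthetases that rose were CARS1, GARS1 and AARS1, which charge cysteine, glycine and alanine. CARS1 lies at chr11:3000922-3057613 on the minus strand of hg38. CARS1 had 100 and 109 CPM in shWNK1 cells, against 83.0 and 79.8 CPM in NS cells, or 104 ± 5.84 against 81.4 ± 2.29 (SD, n = 2 each; log2 0.36, SE 0.074, 1.28-fold, edgeR adjusted p = 2.0e-04). GARS1 had 562 and 560 CPM in shWNK1 cells, against 503 and 478 CPM in NS cells (log2 0.19, SE 0.056, edgeR adjusted p = 0.0061). AARS1 had 445 and 468 CPM in shWNK1 cells, against 400 and 398 CPM in NS cells (log2 0.19, SE 0.057, edgeR adjusted p = 0.0071). In each of these 3 genes both shWNK1 libraries lay above both NS libraries, and 68.4% of all tested genes also had groups that did not overlap. Only CARS1 was also called with either shWNK1 library left out: GARS1 then had edgeR adjusted p-values of 0.121 and 0.130, and AARS1 of 0.058 and 0.253. GARS1 shares 7.66% of its exon bases with GARS1-DT on the opposite strand, which also rose (48.4 and 47.1 CPM in shWNK1 cells, 42.7 and 33.6 CPM in NS cells; log2 0.32, edgeR adjusted p = 0.013). Strand was not used in counting. Reads in the shared bases overlap both genes, and such reads were not asked for, so they count for neither gene. The effect of the shared bases on the level and change of GARS1 was not tested.

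The promoters of these 3 genes hold the core of the C/EBP-ATF response element, TGATGNAA, through which ATF4 acts as a dimer with a C/EBP family partner. The letters were searched on both strands of RefSeq windows (GRCh38.p14) reaching from 250 bases before to 50 bases after the gene's start, which 32 members have. They were found in 8 of the 32 members (25.0%), in 4.46% of the 27305 genes with such a window, and in 2.66% of the 10536 tested genes with one. The windows of all 8 are shown because members with the same core did not move the same way. Each is read 5′ to 3′ on the strand that carries the core, with the core in capitals.
CARS1, rose, chr11:3057407-3057436, plus strand: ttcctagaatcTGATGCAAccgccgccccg
GARS1, rose, chr7:30594834-30594863, minus strand: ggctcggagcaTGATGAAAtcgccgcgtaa
AARS1, rose, chr16:70289675-70289704, plus strand: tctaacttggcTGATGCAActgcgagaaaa
MARS1, not called, chr12:57488053-57488082, minus strand: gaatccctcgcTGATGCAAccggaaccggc
TARS1, not called, chr5:33440956-33440985, minus strand: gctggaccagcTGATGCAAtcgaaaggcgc
NARS1, fell, chr18:57621804-57621833, minus strand: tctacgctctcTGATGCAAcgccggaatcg
IARS1, fell, chr9:92293692-92293721, plus strand: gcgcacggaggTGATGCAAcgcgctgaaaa
YARS2, fell, chr12:32756076-32756105, minus strand: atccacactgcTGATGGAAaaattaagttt
Counted along the gene from its start, the core begins between positions -33 and 14 in 6 of these genes, at -187 in AARS1 and at -197 in YARS2. Except in NARS1 and YARS2 it is read on the strand opposite to the gene. Of the 8 carriers 3 rose, 3 fell and 2 were not called, with a median log2 fold change of 0.03. Over all tested genes with a window, 21.4% of the 280 carriers rose and 24.3% fell, against 20.4% and 22.2% of genes without the core. A match of these letters is not evidence of binding.

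Among 12 cytosolic synthetases often reported as ATF4 targets, 3 rose, 3 fell and 6 were not called, with a median log2 fold change of -0.02. Of the other 7 cytosolic synthetases none rose, 6 fell, and HARS1 (histidine) was not called, with a median of -0.31. Over all tested genes 18.5% rose and 20.2% fell. The 3 rises and 3 falls in 12, and the lack of rises in 7, are near these shares, while 6 falls in 7 are above. The difference between these lists was not tested. MARS1 (methionine) had 239 and 258 CPM in shWNK1 cells and 234 and 227 CPM in NS cells (log2 0.11, edgeR adjusted p = 0.157, and 0.049 with upper-quartile scaling). MARS1 shares 13.3% of its exon bases with other genes, chiefly ARHGAP9 (7.38%) and DDIT3 (5.05%) on the opposite strand. YARS1 (tyrosine), EPRS1 (glutamate and proline), LARS1, TARS1 (threonine) and SARS1 (serine) had log2 fold changes of 0.03, -0.01, -0.04, -0.05 and -0.13, with edgeR adjusted p-values between 0.103 and 0.918.

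Among 18 other ATF4 targets and amino acid sensors, 5 rose and 6 fell, with a median log2 fold change of -0.04. Over all tested genes 18.5% rose and 20.2% fell. CHAC1, a glutathione-degrading enzyme, had 25.7 and 21.6 CPM in shWNK1 cells against 9.09 and 6.91 CPM in NS cells (log2 1.56, SE 0.157, edgeR adjusted p = 1.5e-09). SESN2, a leucine sensor, had 40.5 and 38.2 CPM in shWNK1 cells against 16.4 and 13.7 CPM in NS cells (log2 1.39, SE 0.121, edgeR adjusted p = 5.2e-11). TRIB3, a pseudokinase that inhibits ATF4, had 31.0 and 35.3 CPM in shWNK1 cells against 53.4 and 55.7 CPM in NS cells (log2 -0.72, edgeR adjusted p = 3.1e-07). IMPACT, an inhibitor of GCN2 activation, fell by 0.47 on the log2 scale (edgeR adjusted p = 1.2e-05). Known targets of the same factor thus moved in opposite directions. Another 3 genes are named after their values were seen. ATF4 mRNA itself had 406 and 409 CPM in shWNK1 cells against 305 and 323 CPM in NS cells (log2 0.38, SE 0.058, edgeR adjusted p = 3.3e-06). EIF2AK4, the GCN2 kinase, had 98.2 and 107 CPM in shWNK1 cells against 89.5 and 85.8 CPM in NS cells (log2 0.23, edgeR adjusted p = 0.014). ASNS, asparagine synthetase and a textbook ATF4 target, was barely transcribed in either group, with 1.83 and 2.09 CPM in shWNK1 cells and 1.82 and 0.827 CPM in NS cells (log2 0.57, edgeR adjusted p = 0.355). These 3 log2 fold changes are all positive, but the genes were picked with their values known, so the shared sign is not a result. Of all 18 genes of the list 10 had a negative log2 fold change. The remaining calls of the list, also named after their values were seen, were mostly falls. GCN1, SHMT2, SLC7A5 and SLC3A2 fell (log2 -0.23, -0.20, -0.18 and -0.17), and PSAT1 rose (log2 0.21), with edgeR adjusted p-values of 0.0017 to 0.027.

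**Figure D3:**
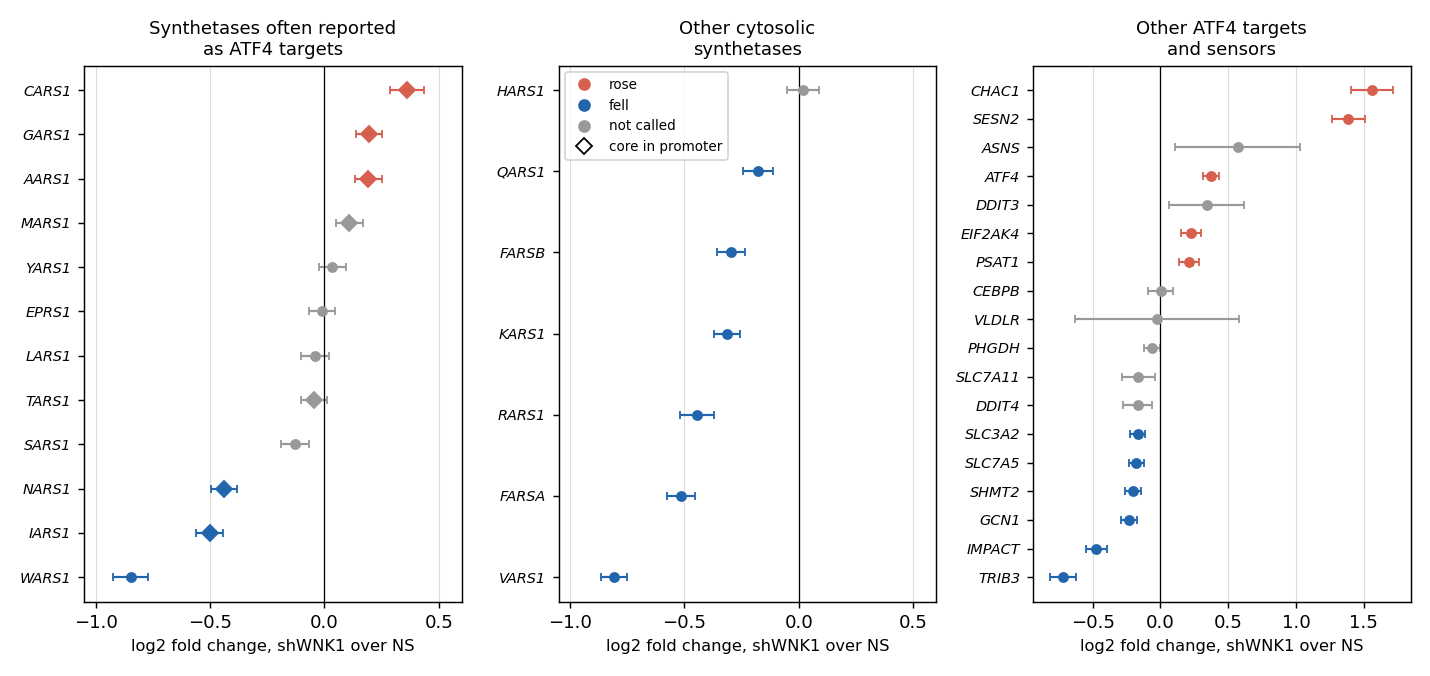
Log2 fold change, shWNK1 over NS, with bars for the standard error, of synthetases often reported as ATF4 targets, of the other cytosolic synthetases, and of other ATF4 targets and sensors; diamonds mark members with the C/EBP-ATF core in the promoter window, and the right panel has a wider axis. Diamonds lie on both sides of 0, and no window was searched for YARS1, LARS1 or VARS1.

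The 2 largest falls were those of WARS1 and VARS1, which charge tryptophan and valine outside the multi-synthetase complex. On hg38 the table places WARS1 at chr14:100333790-100376805 and VARS1 at chr6:31777518-31795752, both on the minus strand. WARS1 had 57.4 and 56.9 CPM in shWNK1 cells, against 104 and 102 CPM in NS cells, or 57.2 ± 0.407 against 103 ± 1.55 (SD, n = 2 each; log2 -0.85, SE 0.076, 1.80-fold lower, edgeR adjusted p = 1.2e-10). VARS1 had 348 and 365 CPM in shWNK1 cells, against 628 and 620 CPM in NS cells, or 356 ± 12.3 against 624 ± 5.89 (SD, n = 2 each; log2 -0.81, SE 0.057, 1.75-fold lower, edgeR adjusted p = 3.9e-13). Per kilobase of exon VARS1 had a mean level of 60.6 in shWNK1 cells and 106 in NS cells, where it was second to GARS1. FARSA and FARSB encode the 2 kinds of subunit of the cytosolic phenylalanine enzyme. FARSA had 145 and 147 CPM in shWNK1 cells, against 208 and 208 CPM in NS cells (log2 -0.51, SE 0.062, 1.43-fold lower, edgeR adjusted p = 4.3e-08). FARSB had 171 and 170 CPM in shWNK1 cells, against 214 and 204 CPM in NS cells (log2 -0.30, SE 0.062, edgeR adjusted p = 2.2e-04). The asparagine enzyme NARS1 had 274 and 262 CPM in shWNK1 cells, against 367 and 359 CPM in NS cells (log2 -0.44, SE 0.058, edgeR adjusted p = 2.5e-07). In these 5 genes every shWNK1 library lay below every NS library, and all 5 were called under each alternative. HARS1 had 128 and 133 CPM in shWNK1 cells and 122 and 135 CPM in NS cells (log2 0.02, edgeR adjusted p = 0.860), so its groups overlapped. In 68.4% of all tested genes the groups did not overlap. Of all 12 cytosolic synthetases outside the complex 3 rose, 5 fell and 4 were not called. Among all tested genes 18.5% rose and 20.2% fell.

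WARS1 is also known as a gene induced by interferon gamma through IRF1 and other factors, and other genes of that response were set beside it. Of 9 such genes 6 were tested, of which 2 rose and 2 fell, with a median log2 fold change of 0.03. The shares over all tested genes were 18.5% that rose and 20.2% that fell. IRF1 had 33.8 and 37.6 CPM in shWNK1 cells against 18.2 and 17.9 CPM in NS cells (log2 0.99, SE 0.117, edgeR adjusted p = 3.2e-08). SOCS1, a feedback inhibitor of cytokine signalling, had 7.80 and 7.69 CPM in shWNK1 cells against 3.34 and 3.84 CPM in NS cells (log2 1.11, SE 0.231, edgeR adjusted p = 2.3e-04). Both genes were therefore higher in shWNK1 cells while WARS1 was lower. The guanylate-binding protein GBP1 fell by 0.96 on the log2 scale (edgeR adjusted p = 1.1e-04) and the immunoproteasome subunit PSMB9 by 0.43 (edgeR adjusted p = 5.7e-05). WARS1 shares 10.6% of its exon bases with genes on the opposite strand, 6.06% with ENSG00000258666 and 4.52% with WDR25. WDR25 rose (6.48 and 6.03 CPM in shWNK1 cells, 3.64 and 3.37 CPM in NS cells, log2 0.83, edgeR adjusted p = 0.0069). The effect of the shared bases on WARS1 was not tested.

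Of the 7 synthetases of the multi-synthetase complex none rose, 4 fell (IARS1, RARS1, KARS1 and QARS1) and 3 were not called (EPRS1, LARS1 and MARS1), with a median log2 fold change of -0.18. Of all tested genes 18.5% rose and 20.2% fell. A count of 0 rises in 7 is near the first share, while 4 falls in 7 are above the second. The excess of falls was not tested. IARS1, the isoleucine enzyme, had 335 and 338 CPM in shWNK1 cells, against 498 and 455 CPM in NS cells (log2 -0.50, SE 0.059, 1.41-fold lower, edgeR adjusted p = 2.6e-08). RARS1, the arginine enzyme, had 75.0 and 80.1 CPM in shWNK1 cells, against 109 and 102 CPM in NS cells (log2 -0.44, SE 0.075, edgeR adjusted p = 1.3e-05). KARS1 had 338 and 351 CPM in shWNK1 cells, against 435 and 421 CPM in NS cells (log2 -0.31, SE 0.057, edgeR adjusted p = 4.2e-05). These 3 were called under each alternative. QARS1, the glutamine enzyme, had 130 and 125 CPM in shWNK1 cells, against 144 and 144 CPM in NS cells (log2 -0.18, SE 0.065, edgeR adjusted p = 0.028), and was not called with DESeq2, with upper-quartile scaling or without either shWNK1 library. EPRS1 and LARS1 were counted at 423 and 435 CPM (EPRS1) and 253 and 272 CPM (LARS1) in shWNK1 cells, and at 443 and 421 CPM (EPRS1) and 273 and 267 CPM (LARS1) in NS cells. In EPRS1 and LARS1 the groups overlapped, unlike in the 4 members that fell and in MARS1, which was not called. Groups without overlap were found in 68.4% of all tested genes.

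The scaffold AIMP2, which holds much of the complex together, had 65.4 and 60.9 CPM in shWNK1 cells, against 72.5 and 76.5 CPM in NS cells (log2 -0.24, SE 0.081, edgeR adjusted p = 0.018). That call was lost without either shWNK1 library or without NS replicate 2, with edgeR adjusted p-values of 0.062 to 0.241. AIMP2 shares 29.1% of its exon bases with EIF2AK1, a heme-regulated kinase on the opposite strand, which had 361 and 357 CPM in shWNK1 cells against 322 and 295 CPM in NS cells (log2 0.22, edgeR adjusted p = 0.0037). The overlapping gene thus moved the other way. Reads that overlap several genes were not asked for in counting, and the effect of the shared bases on the level and change of AIMP2 was not tested. AIMP1, also the precursor of a secreted cytokine, had 79.4 and 79.3 CPM in shWNK1 cells and 82.1 and 84.4 CPM in NS cells (log2 -0.07, edgeR adjusted p = 0.506). EEF1E1, the third scaffold and not one of the 37 genes, had 20.1 and 15.3 CPM in shWNK1 cells and 18.6 and 27.4 CPM in NS cells (log2 -0.39, edgeR adjusted p = 0.067), with overlapping groups.

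Mitochondrial synthetases that rose were RARS2, AARS2 and HARS2, for arginine, alanine and histidine. The table places RARS2 at chr6:87513938-87589987 on the minus strand of hg38. RARS2 had 38.8 and 39.4 CPM in shWNK1 cells, against 29.0 and 27.0 CPM in NS cells, or 39.1 ± 0.425 against 28.0 ± 1.43 (SD, n = 2 each; log2 0.48, SE 0.104, 1.39-fold, edgeR adjusted p = 3.8e-04). It was called under each alternative. AARS2 had 75.5 and 84.3 CPM in shWNK1 cells, against 63.7 and 62.9 CPM in NS cells (log2 0.34, SE 0.081, edgeR adjusted p = 0.0011, and 0.112 without shWNK1 replicate 2). HARS2 had 71.0 and 69.5 CPM in shWNK1 cells, against 59.7 and 62.1 CPM in NS cells (log2 0.21, SE 0.081, edgeR adjusted p = 0.043). The HARS2 call was lost under 6 of the 12 alternatives, among them DESeq2 (adjusted p = 0.110). HARS1 and HARS2 lie head to head on chromosome 5, with annotated starts 107 bases apart and 108 exon bases in common, and of this pair only HARS2 was called.

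The mitochondrial enzymes that fell were MARS2 (methionine), IARS2, YARS2 (tyrosine) and CARS2 (cysteine). MARS2 had 45.6 and 44.1 CPM in shWNK1 cells, against 62.5 and 60.9 CPM in NS cells (log2 -0.46, SE 0.086, 1.38-fold lower, edgeR adjusted p = 6.2e-05). IARS2 had 147 and 146 CPM in shWNK1 cells, against 186 and 187 CPM in NS cells (log2 -0.34, SE 0.062, edgeR adjusted p = 3.9e-05). Both were called under each alternative, and in both the groups did not overlap, as in 68.4% of all tested genes. YARS2 had 21.0 and 19.9 CPM in shWNK1 cells, against 26.4 and 25.1 CPM in NS cells (log2 -0.33, SE 0.121, edgeR adjusted p = 0.029). The YARS2 call was lost under 5 of the 12 alternatives, among them DESeq2 (adjusted p = 0.084). YARS2 shares 18.1% of its exon bases with ENSG00000286950 on the opposite strand, and the effect of these bases was not tested. CARS2 had 50.2 and 46.2 CPM in shWNK1 cells, against 57.6 and 59.4 CPM in NS cells (log2 -0.28, SE 0.087, edgeR adjusted p = 0.010, and 0.194 without shWNK1 replicate 2). All 4 belong to class I: 4 of 8 tested class I mitochondrial enzymes fell and 1 rose, while of 7 class II mitochondrial enzymes none fell and 2 rose. Over both compartments 2 of 18 tested class I enzymes rose and 9 fell, and 4 of 16 class II enzymes rose and 4 fell. Of all 14864 tested genes 18.5% rose and 20.2% fell. The difference between classes was not tested.

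Other mitochondrial synthetases were not called. FARS2 (phenylalanine) had 22.8 and 20.9 CPM in shWNK1 cells and 25.7 and 26.5 CPM in NS cells (log2 -0.26, edgeR adjusted p = 0.089). WARS2 (tryptophan) had 24.3 and 24.7 CPM in shWNK1 cells and 29.7 and 29.0 CPM in NS cells (log2 -0.26, edgeR adjusted p = 0.070). In both genes the shWNK1 libraries lay below the NS libraries, and 68.4% of all tested genes also had groups that did not overlap. The threonine enzyme TARS2, the asparagine enzyme NARS2, the leucine enzyme LARS2, the proline enzyme PARS2 and the glutamate enzyme EARS2 had log2 fold changes of -0.10, -0.04, 0.04, 0.08 and 0.10, with edgeR adjusted p-values between 0.337 and 0.787. SARS2 had 26 and 32 counts in shWNK1 libraries and 23 and 19 counts in NS libraries (log2 0.30, SE 0.489, edgeR adjusted p = 0.673). VARS2 was not tested, at 2 and 5 counts in shWNK1 libraries and 6 and 3 counts in NS libraries.

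Cytosolic and mitochondrial enzymes for the same amino acid moved in opposite directions for arginine and for cysteine, and in the same direction for alanine and for isoleucine. In NS cells the cytosolic transcript was the more abundant per kilobase of exon in all 15 pairs left after SARS2 and VARS2 were set aside, with a mean ratio of 1.04 (histidine) to 15.8 (FARSA over FARS2) and a median of 4.21. Arginine showed the largest shift: the ratio of RARS1 to RARS2 was 1.68 and 1.77 in shWNK1 cells, against 3.26 and 3.29 in NS cells, as RARS1 fell and RARS2 rose. For cysteine the members moved the other way, CARS1 rising and CARS2 falling, and their ratio was 2.08 and 2.45 in shWNK1 cells, against 1.50 and 1.40 in NS cells. For methionine the ratio was 2.26 and 2.52 in shWNK1 cells, against 1.61 and 1.60 in NS cells, with a call in MARS2 alone. For tryptophan it was 1.43 and 1.39 in shWNK1 cells, against 2.12 and 2.12 in NS cells, with a call in WARS1 alone. In the histidine pair the ratio was 0.891 and 0.945 in shWNK1 cells, against 1.01 and 1.08 in NS cells. These ratios near 1 rest on the merged exon lengths of HARS1 (7528 bases) and HARS2 (3719 bases), and in CPM HARS1 was the higher in every library. With 2 libraries a group an exact two-sided permutation test of a ratio cannot give a p below 0.333, and the ratios were not tested.

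**Figure D4:**
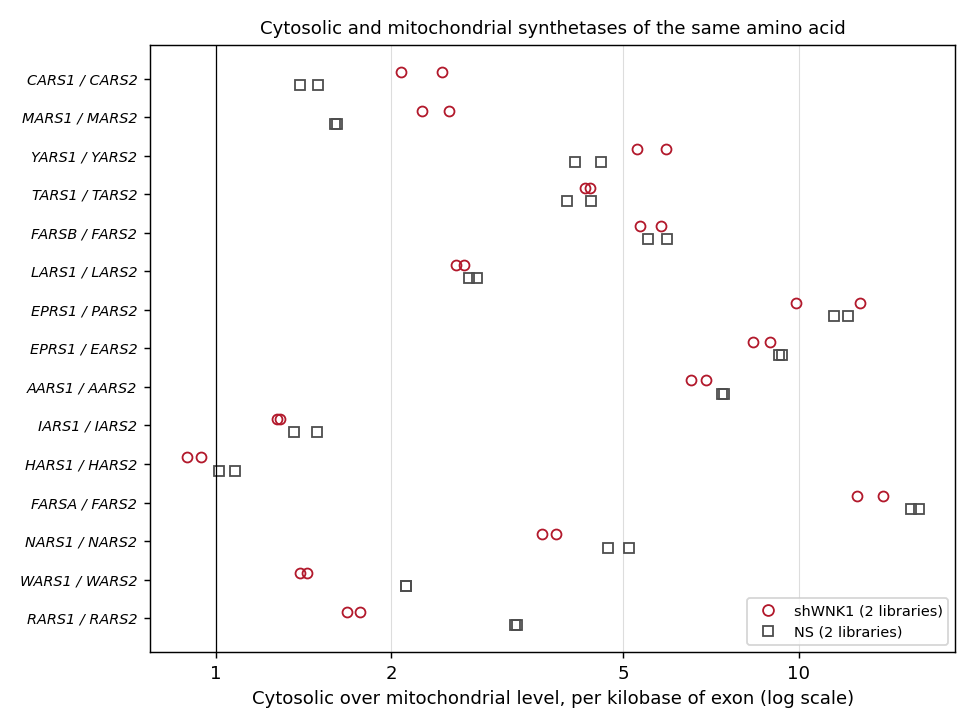
Ratio of the cytosolic to the mitochondrial synthetase of the same amino acid in each library, from levels per kilobase of exon on a log axis, with shWNK1 libraries as circles and NS libraries as squares. EPRS1 and FARS2 each stand in 2 of the 15 pairs; the arginine pair (1.68 and 1.77 in shWNK1 cells, 3.26 and 3.29 in NS cells) is the farthest apart.

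The 6-base word AGTATC was searched in annotated 3′ UTRs because it was known from earlier work on these data to be more frequent among genes that fell. It was present in the longest annotated 3′ UTR of 33.3% of all genes that fell, 18.1% of those that rose and 21.0% of those not called. The word was chosen for this difference, which is therefore not a test of the word. Among the 36 tested members the word was present in 6 (16.7%): in 1 of 14 that fell, in none of 6 that rose and in 5 of 16 that were not called. NARS1 was the single fallen carrier, while WARS1, VARS1, FARSA and IARS1 held none in UTRs of 1087, 76, 269 and 1068 bases. The not called carriers were EARS2, EPRS1, MARS1, TARS1 and WARS2. The sites of NARS1 and of the 2 most abundant carriers that were not called are shown with 12 bases on either side and the word in capitals, since the word sits in members of either kind.
NARS1, fell, base 685 of a 996-base 3′ UTR: ttagtgattcacAGTATCcctcttagcatt
TARS1, not called, base 226 of 1831: ttttactcattcAGTATCtgagtactggaa
EPRS1, not called, base 56 of 205: agcattgatattAGTATCttctcagataca
Members have short 3′ UTRs, with a median of 602.5 bases against 1370 over all tested genes, and the part of UTR length in these shares was not tested. Promoters with the E-box CACGTG, which MYC and other factors bind, were found for AIMP2, CARS2, EARS2, IARS1 and MARS2, or 15.6% of members with a window, against 12.6% of tested genes. Of these 5 members 4 fell. Over all tested genes 27.3% of those with an E-box fell, against 21.6% of those without.

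Other genes of tRNA processing, transport, charging and delivery, which are not among the 37, also moved both ways. Of 17 listed, 2 rose, 5 fell and 10 were not called, with a median log2 fold change of -0.07. With 38.8% of all tested genes called, 7 calls in 17 are near the background. TARS3, a further threonine synthetase outside the set, had 24.7 and 21.3 CPM in shWNK1 cells, against 15.4 and 15.6 CPM in NS cells (log2 0.56, SE 0.133, edgeR adjusted p = 9.1e-04). XPOT, which exports tRNA from the nucleus, had 309 and 318 CPM in shWNK1 cells, against 385 and 362 CPM in NS cells (log2 -0.25, SE 0.058, edgeR adjusted p = 7.0e-04). Mitochondria make glutaminyl-tRNA by an amidotransferase of QRSL1, GATB and GATC that acts on tRNA charged by EARS2. QRSL1 had 32.3 and 28.1 CPM in shWNK1 cells, against 43.4 and 43.6 CPM in NS cells (log2 -0.53, SE 0.103, edgeR adjusted p = 9.4e-05). GATC had 57.5 and 55.3 CPM in shWNK1 cells, against 48.5 and 47.6 CPM in NS cells (log2 0.23, SE 0.087, edgeR adjusted p = 0.033). GATB, named to complete the enzyme, had 23.5 and 22.4 CPM in shWNK1 cells, against 20.0 and 20.0 CPM in NS cells (log2 0.20, edgeR adjusted p = 0.219). QRSL1 thus fell while GATC rose. EARS2, the enzyme before them, was not called, with 66.5 and 63.9 CPM in shWNK1 cells and 62.9 and 59.0 CPM in NS cells.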

How the data were processed

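Raw counts were deposited as a single table of genes. Per the file headers, the authors ran featureCounts v2.0.0 against GENCODE v34, ignored strand (setting 0) and required a mapping quality of at least 20. Trimmomatic, STAR and hg38 are named in the submitters' processing notes, with no version of the first 2. One gene broken over 3 lines and 45 Y copies of pseudoautosomal genes were left out. Symbols were found for 60369 of 60682 identifiers, and for all 37 members. Members, gene lists, motifs and tests were chosen with earlier results of these data known.

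Counts were filtered with filterByExpr (14864 genes), scaled by TMM factors and tested two-sided with edgeR 4.0.16 in R 4.3.3 (glmQLFit robust, glmQLFTest), shWNK1 over NS, without a block, and p-values were adjusted by Benjamini-Hochberg over all tested genes. An adjusted p under 0.05 made a call; rose and fell are used of calls only. CPM use TMM-scaled library sizes, and levels per kilobase use the deposited exon length. Every member is named; of each related list, up to 2 genes with the smallest p in each direction are named, and others are marked. Alternatives were DESeq2 1.42.0, limma-voom (limma 3.58.1), RLE and upper-quartile factors, a filter of 1 CPM in 2 libraries, no filter, a term for the replicate number, library sizes without immunoglobulin or mitochondrially encoded genes, and the removal of each library in turn. The code was tested on simulated data. Promoters are from RefSeq (GRCh38.p14) and 3′ UTRs from GENCODE v29. The 16 pseudogenes that carry the name of 1 of 12 members had at most 1 count in a library. One gene of the interferon gamma list is not reported here.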

Additional observations from a re-analysis of the deposited data

How the results depend on the processing

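No called member reversed its direction under any alternative. Of the 20 called members 12 were called under all 12 alternatives and 8 lost the call under at least 1; of the 16 members not called, MARS1 gained a call under upper-quartile scaling. Leaving out 1 library at a time gave 12 to 19 called members, 1 to 3 cytosolic and 1 to 3 mitochondrial synthetases that rose, and 8 to 9 cytosolic and 2 to 4 mitochondrial ones that fell. The lowest counts came without shWNK1 replicate 2, and the cytosolic rise count was 1 without either shWNK1 library. The median log2 fold change of cytosolic synthetases was between -0.157 and -0.0831 with 1 library left out and -0.0874 with upper-quartile scaling, and that of mitochondrial ones was between -0.118 and 0.00854 with 1 library left out. The cause was not tested; without an shWNK1 library 14 and 12 members were called, and without an NS library 18 and 19.

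With the replicate number as a block, 19 members were called, 3 cytosolic and 2 mitochondrial synthetases rose, and 9 and 4 fell; HARS2 lost its call (adjusted p = 0.058). Same-numbered libraries did not deviate together (r = -0.0047 across 14864 genes, which are not independent), so the numbers were not taken to pair the libraries. The table's column names also give same-numbered libraries a common letter (A or B), whose meaning the labels do not state. Over all genes, upper-quartile scaling made 54.1% of calls rises, against 47.8%, and moved the median log2 fold change to 0.04. VARS2 and SARS2 had few counts, and much of their exon sequence is shared with other genes.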
